A study of Rattus norvegicus with 20 samples.

Results

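The transcripts described here are those with the lowest level in lean rats and a higher mean level in obese rats, rosiglitazone rats and resveratrol rats alike. They were selected on the measured group means of the log2 value table, which has 36685 rows, each row being 1 transcript cluster, the probes of the array that are summarised together for a locus. A row was kept where the rosiglitazone and resveratrol means differed by at most 1.0 and the obese and resveratrol means by less than 0.585, which left 31681 rows. Its score was the smallest of the obese, rosiglitazone and resveratrol means minus the lean mean, and the 100 rows with the highest score are the members, called lean-low rows below. Of these, 32 carry 1 gene symbol, 1 carries several (Fcgr2a and FCGR3, Fc receptor genes) and 67 carry none in the array annotation used here. Because all 4 group means entered the choice, every difference from lean given below describes the choice and supports nothing, and the limma results are set beside the share of all rows that passed the same test.

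The study measured gene expression in subcutaneous tissue of male ZDF rats of the Zucker strain on Affymetrix Rat Gene 2.1 ST arrays, with 5 arrays of separate biological replicates in each of 4 groups. Lean control rats ate a standard chow, and obese rats were given a stock diet for 6 weeks. The rosiglitazone group received an agonist of the nuclear receptor PPAR gamma, and the resveratrol group a plant polyphenol. Dose, length of treatment, age and the depot within the subcutaneous tissue are not given in the labels, nor do they state that the treated rats were obese.

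ZDF rats become obese through a mutation of the leptin receptor gene, so that leptin made by fat cells is secreted but not sensed in homozygous animals. Enlarging fat tissue is known to gain macrophages and other myeloid leukocytes, which gather around dying fat cells, take up lipid and carry lysozyme, galectin and integrin genes. It also remodels the matrix between its cells. In whole tissue, a lower level can come from fewer cells of a type or from less RNA per cell, and these cannot be told apart here.

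Adipocyte identity genes (10 rows, among them Adipoq, Plin1 and Fabp4) summed to 13.3 to 13.7 on the log2 scale on all 20 arrays, so the fat cell markers were high in every group. Mammary epithelial genes split the arrays instead. The summed log2 signal of 9 such genes, milk protein genes among them, was 11.6 to 12.2 on lean 3, lean 4 and lean 5, 11.4 and 11.5 on obese 3 and obese 4, and 10.1 to 10.8 on rosiglitazone 1, 3 and 5. It was 7.09 on lean 1, 6.56 on obese 5 and 5.19 to 5.53 on the other arrays, lean 2 and all 5 resveratrol arrays included. The part of these glands in the lean-low pattern was not tested. Lean 2 stood apart from the other lean arrays in most lean-low genes, as given with each value below, so results are also given without it. No measurement here checks its label, and every lean mean and count below rests on that label. Obese 3 stood apart as a whole array, with the highest median of the 20 (2.81), the lowest SD over rows (1.66, the others 1.80 to 1.98), the lowest limma array weight (0.22) and the lowest adipocyte sum (13.3). The obese mean, which includes it, was the lowest of the other groups' means in 49 of the 100 rows.

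Across the 100 lean-low rows the median log2 value was 3.08, 4.03, 3.51, 3.12 and 2.98 on lean arrays 1 to 5, the order in which 5 values of a group are listed throughout. The obese arrays gave 4.12, 4.31, 3.89, 4.20 and 4.35, the rosiglitazone arrays 4.07, 4.01, 4.32, 4.46 and 4.44, and the resveratrol arrays 4.27, 4.59, 4.44, 4.33 and 4.26. Lean 2 thus lay inside the range of the other groups, and the other 4 lean arrays lay below all of them. The heat map of the 100 rows shows this array by array.

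**Figure D1:**
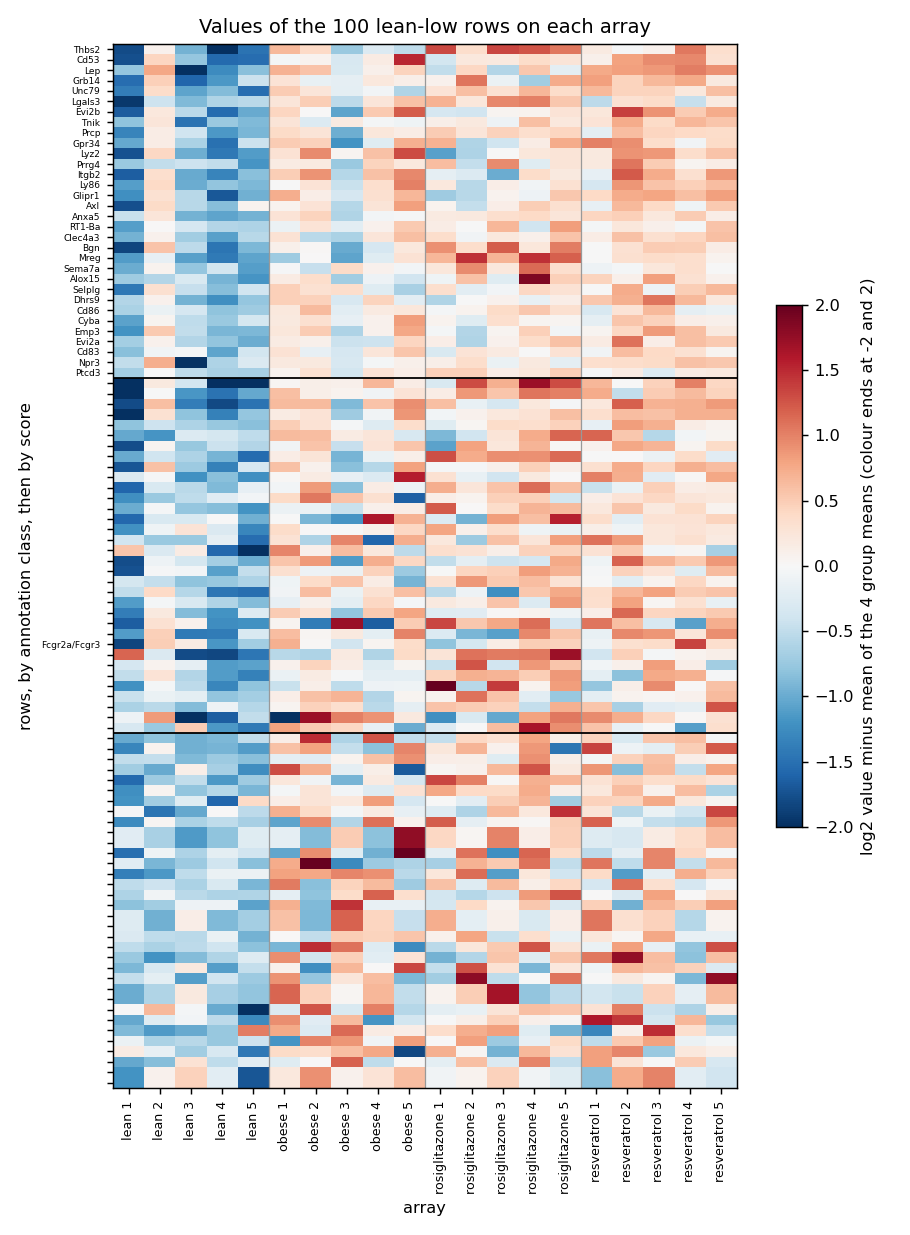
Each line is 1 of the 100 lean-low rows and each column 1 array. Colour gives the log2 value minus the mean of the 4 group means, red for higher and blue for lower, with colours ending at -2 and 2. From top to bottom stand the 32 rows with 1 gene symbol, the other unnamed rows with Fcgr2a/Fcgr3 among them, and the 34 rows numbered below the lowest named row. Lean 1, 3, 4 and 5 are mostly blue in the upper blocks, while lean 2 is pale or red there.

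The scores ran from 1.88 (3.67-fold) to 0.548 (1.46-fold), with a median of 0.642 (1.56-fold), and only 8 rows scored 1 or more. The median difference from lean was 0.74 in obese, 0.85 with rosiglitazone and 0.91 with resveratrol, against 0.05, -0.01 and 0.02 over all rows. For obese minus lean, 0 of the 100 rows were called higher by limma at an adjusted p (Benjamini-Hochberg) under 0.05, beside 0.0191% of all rows, and the smallest adjusted p among them was 0.0835. Unadjusted, 65 of the 100 passed 0.05, as did 4903 of the 36685 rows. The lower lean mean was thus a call in no member when set against obese rats alone. For rosiglitazone minus lean, 29 of the 100 were called higher (3.68% of all rows), and for resveratrol minus lean 11 were (0.191% of all rows), 8 of them with both treatments. Without lean 2 these counts were 11, 44 and 46 for obese, rosiglitazone and resveratrol, beside 33, 1831 and 771 of the 36685 rows. Leaving out a single array could also end the resveratrol calls. The count was 0 without lean 1, lean 3, lean 4, lean 5 or rosiglitazone 5, and without each of the resveratrol arrays. In each of these fits 0 of all rows were called higher as well. Without obese 3 the count was 25, beside 280 of all rows.

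In 2 of the 100 rows all 5 lean arrays lay below all 15 others, as in 0.03% of all rows. With lean 2 left aside this held for 19 of the 100 and for 0.234% of all rows. Values varied more within these rows than over all rows in each group. The median SD was 0.54 in lean (0.46 without lean 2), 0.52 in obese, 0.44 with rosiglitazone and 0.40 with resveratrol, against 0.27, 0.36, 0.23 and 0.22 over all rows. 

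Leukocyte genes formed the largest group of named members, 14 of 32, as sorted by known role after the values had been seen. They span surface receptors (Cd53, Evi2b, Itgb2, Selplg, Ly86, Clec4a3, Gpr34), antigen presentation (Cd86, Cd83, RT1-Ba) and granule, oxidase and lipid enzymes (Lyz2, Cyba, Lgals3, Alox15). Their median difference from lean was 0.75 in obese, 0.78 with rosiglitazone and 1.07 with resveratrol. limma called 0, 4 and 0 of the 14 higher, respectively. Lean 2 was the highest lean array in 12 of the 14.

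Cd53, a tetraspanin of the leukocyte surface, had the highest score among them (1.17). It read 4.22, 6.42, 5.21, 4.42 and 4.46 on lean arrays 1 to 5. The obese arrays read 5.94, 6.04, 5.65, 6.15 and 7.48, the rosiglitazone arrays 5.62, 6.19, 6.18, 6.34 and 6.24, and the resveratrol arrays 6.08, 6.78, 6.93, 6.95 and 6.29. All lean arrays but lean 2 lay below every other array, and lean 2 lay inside the other groups. The mean was 4.95 ± 0.90 (SD, n = 5) in lean, 2.25-fold lower than with rosiglitazone and 3.16-fold lower than with resveratrol, but no difference was called (limma adjusted p = 0.173 for obese, 0.0664 for rosiglitazone and 0.0566 for resveratrol).

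Lyz2, the lysozyme of macrophages, read 7.05, 9.21, 7.81, 7.35 and 7.67 on the lean arrays and 9.07, 9.73, 8.84, 9.37 and 10.09 on the obese arrays. With rosiglitazone it read 7.70, 8.17, 8.77, 9.01 and 9.04, and with resveratrol 8.97, 9.69, 9.65, 9.14 and 9.35. Rosiglitazone 1 lay among the low lean arrays and lean 2 among the obese ones, so lean overlapped both. Lyz2 had the smallest adjusted p of the members for obese minus lean (log2 difference 1.60, SE 0.34, adjusted p = 0.0835), which missed the threshold. The rosiglitazone mean was 0.88 below the obese mean on the log2 scale (limma adjusted p = 0.0837).

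Itgb2, the beta chain shared by leukocyte integrins, read 3.07, 5.04, 3.71, 3.40 and 3.87 on the lean arrays. It read 5.21, 5.60, 4.15, 5.29 and 5.67 in obese, 4.53, 4.43, 3.72, 5.08 and 4.91 with rosiglitazone and 4.54, 5.94, 5.45, 5.03 and 5.58 with resveratrol. Obese 3 and rosiglitazone 3 lay lowest in their groups, and rosiglitazone 3 lay among the lean arrays other than lean 2. The log2 differences from lean were 1.37, 0.72 and 1.49 for obese, rosiglitazone and resveratrol, with adjusted p of 0.155, 0.281 and 0.0724 (limma).

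Lgals3, which encodes galectin-3 and is abundant in lipid-laden macrophages, separated the groups more evenly. Its lean values of 5.02, 6.54, 6.06, 6.34 and 6.41 reached into the lowest obese and resveratrol values. Those values were 7.18, 7.43, 6.43, 7.19 and 7.53 in obese and 6.42, 7.25, 7.32, 6.49 and 7.13 with resveratrol, while all rosiglitazone arrays (7.64, 7.17, 7.91, 7.95 and 7.47) lay above all lean arrays. Lean 1 was the lowest of the 20. Lgals3 rose 2.94-fold with rosiglitazone against lean (limma adjusted p = 0.00143). The 2.11-fold difference in obese and the 1.80-fold difference with resveratrol were not called (adjusted p = 0.14 and 0.174).

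Of the other leukocyte genes, 3 passed the test with rosiglitazone. Clec4a3, a C-type lectin receptor of myeloid cells, was 1.83-fold higher (limma adjusted p = 0.0336). Cd86, the costimulatory ligand on antigen-presenting cells, was 1.72-fold higher (adjusted p = 0.02), and without lean 2 its lean arrays (2.53 to 2.99) lay just below all others (lowest 3.02). Alox15, a lipoxygenase that makes lipid mediators, was 2.40-fold higher (adjusted p = 0.0174), with a single high array, rosiglitazone 4, at 5.70 against 3.59 to 4.42 on the others.

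The remaining leukocyte genes passed no comparison with lean. Evi2b, a leukocyte membrane protein, had means of 4.43 in lean and 5.57, 5.28 and 6.09 in obese, rosiglitazone and resveratrol. Gpr34, a lysophosphatidylserine receptor of myeloid cells, had means of 2.58, 3.32, 3.39 and 3.79 in the same order. Ly86, the secreted partner of a Toll-like receptor relative, read 4.26 on lean 2 and 2.76 to 3.08 on the other lean arrays, and 3.31 to 4.87 outside lean. Selplg, the ligand of P-selectin, had a lean mean of 3.57 ± 0.64 (SD, n = 5) against 4.17 to 4.48 elsewhere. Cyba, the membrane subunit of the phagocyte oxidase, had 3.95 ± 0.42 against 4.52 to 4.72. RT1-Ba, an MHC class II alpha chain, had 4.52 ± 0.41 against 5.15 to 5.29, and Cd83, found on mature dendritic cells, 2.42 ± 0.46 against 2.98 to 3.15. In 10 of the 14 leukocyte genes the resveratrol mean exceeded the rosiglitazone mean, and limma called 0 of these differences.

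**Figure D2:**
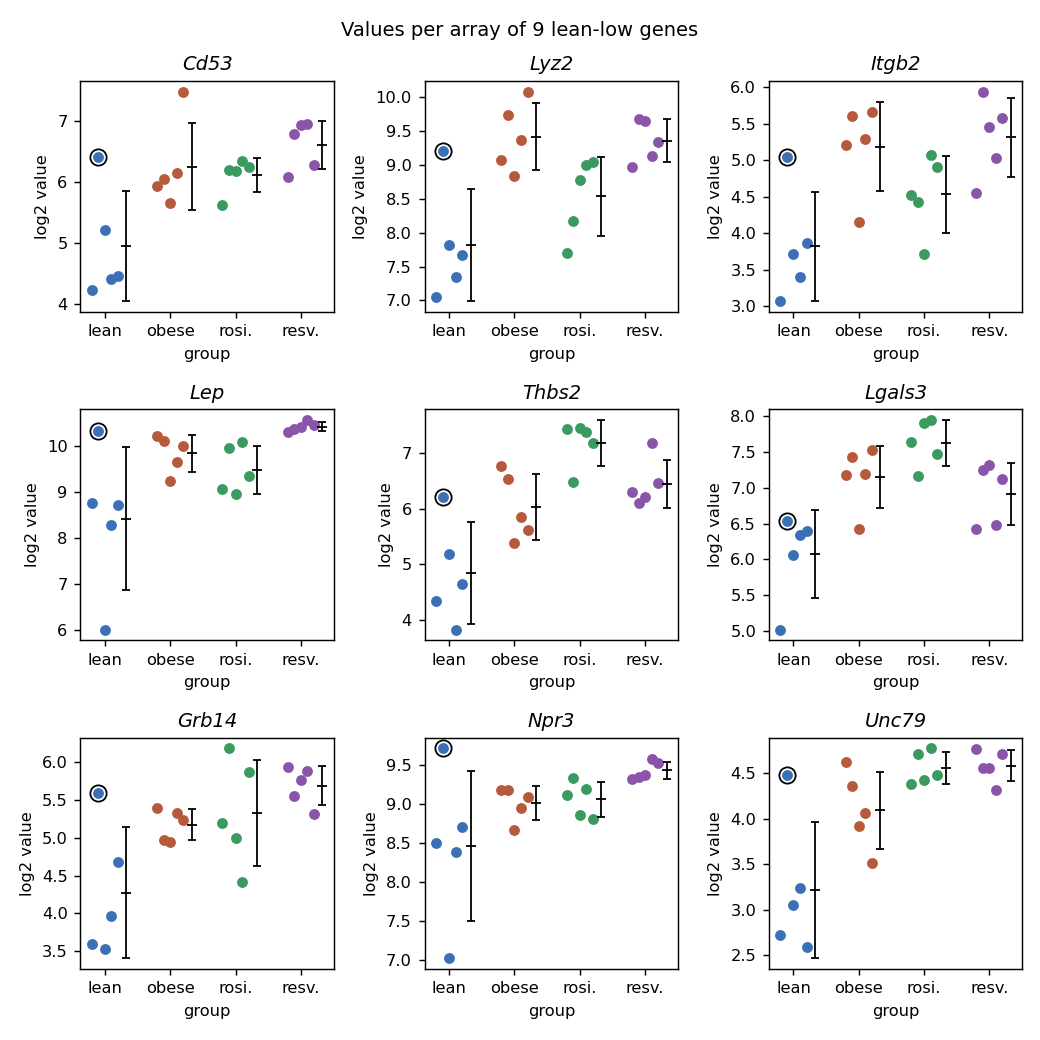
Log2 value of 9 lean-low genes on each of the 20 arrays, by group (rosi., rosiglitazone; resv., resveratrol). Points are arrays, the bar beside them is the mean ± SD (n = 5), and the circled point is lean 2. In each panel lean 2 lies above some arrays of the other groups, but its place among them differs by gene. For Lgals3 only 3 of their arrays lie below it. For Thbs2 it lies below all rosiglitazone arrays, and for Npr3 it lies above all other arrays.

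The 300 bases around the start of 4 of these leukocyte genes are shown because, of the 6 leukocyte members with a match, these hold the core letters GAGGAA of sites of the myeloid factor PU.1 within 50 bases before the start, whereas Clec4a3 and Cd86 hold them farther away. They are RefSeq promoter windows on GRCr8, from 250 bases before to 50 bases after the start, written on the strand of the gene. Cd53 lies at chr2:197087847-197088146 and Lyz2 at chr7:54797962-54798261. Evi2b lies at chr10:64972228-64972527 and Gpr34 at chrX:11785787-11786086. All 4 are on the minus strand. Capitals mark GAGGAA or its reverse complement TTCCTC, and the letters of a TATA box, TATAAA, on either strand.
Cd53: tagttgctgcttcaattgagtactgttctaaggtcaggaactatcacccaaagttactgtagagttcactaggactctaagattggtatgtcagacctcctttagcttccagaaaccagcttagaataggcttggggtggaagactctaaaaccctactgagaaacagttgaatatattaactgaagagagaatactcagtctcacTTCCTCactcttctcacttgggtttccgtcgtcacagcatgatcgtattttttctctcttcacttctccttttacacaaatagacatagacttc
Lyz2: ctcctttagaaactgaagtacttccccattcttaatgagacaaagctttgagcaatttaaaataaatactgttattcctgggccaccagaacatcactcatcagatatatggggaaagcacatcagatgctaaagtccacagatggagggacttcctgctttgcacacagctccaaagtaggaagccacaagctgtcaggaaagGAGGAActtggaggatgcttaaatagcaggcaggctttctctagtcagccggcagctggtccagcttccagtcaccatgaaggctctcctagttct
Evi2b: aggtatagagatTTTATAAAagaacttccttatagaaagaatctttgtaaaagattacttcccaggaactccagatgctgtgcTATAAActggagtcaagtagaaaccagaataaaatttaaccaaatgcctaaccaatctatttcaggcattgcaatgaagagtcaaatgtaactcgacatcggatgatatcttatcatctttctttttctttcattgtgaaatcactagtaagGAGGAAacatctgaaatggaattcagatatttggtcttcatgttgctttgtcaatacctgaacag
Gpr34: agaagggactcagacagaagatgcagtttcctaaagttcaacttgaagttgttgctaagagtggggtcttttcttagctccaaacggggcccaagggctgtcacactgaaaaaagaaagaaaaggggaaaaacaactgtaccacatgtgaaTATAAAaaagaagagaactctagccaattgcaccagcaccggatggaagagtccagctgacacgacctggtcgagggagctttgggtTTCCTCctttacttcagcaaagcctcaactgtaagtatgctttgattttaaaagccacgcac

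The core began 44 bases before the start in Cd53, 46 in Lyz2, 15 in Evi2b and 12 in Gpr34. Lep, which is no leukocyte gene, held it 14 bases before the start. Prrg4, Axl, Mreg and Npr3 held it farther away. Of the 32 named members 23 matched a window. Of these, 11 held GAGGAA on either strand, against 27.5% of 27457 windows, and 12 held a GC box (GGGCGG), against 34.9%. TATAAA was in 4, against 14.3%. Among the 9 leukocyte members with a window, 6 held GAGGAA, 2 the GC box and 2 TATAAA. A match describes these letters in this window, and no binding was measured.

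Genes of the matrix and of membrane contact made up 5 of the named members, and 4 of them passed the test with rosiglitazone against lean (0 in obese, 0 with resveratrol). Their median difference from lean was 0.64 in obese, 1.20 with rosiglitazone and 0.98 with resveratrol. Lean 2 was the highest lean array in all 5.

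Thbs2, a matricellular thrombospondin that binds collagen and proteases, had the highest score of all named members (1.19). Its lean arrays read 4.33, 6.21, 5.17, 3.81 and 4.65. The obese arrays read 6.77, 6.53, 5.38, 5.85 and 5.61, the resveratrol arrays 6.30, 6.10, 6.20, 7.18 and 6.45, and the rosiglitazone arrays 7.44, 6.48, 7.46, 7.38 and 7.18. All rosiglitazone arrays lay above all lean arrays, lean 2 included, and 4 of the 5 lay above all obese arrays. Thbs2 rose 5.10-fold with rosiglitazone against lean (log2 2.35, SE 0.36, limma adjusted p = 0.000412) and 2.23-fold against obese (adjusted p = 0.0376). The 3.05-fold difference with resveratrol (adjusted p = 0.0581) and the 2.29-fold difference in obese (adjusted p = 0.204) were not called.

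Bgn, the small proteoglycan biglycan, read 7.28, 9.68, 8.59, 7.66 and 8.22 in lean and 9.21, 9.14, 8.11, 8.78 and 9.33 in obese. With rosiglitazone it read 10.03, 9.46, 10.32, 9.34 and 10.14, and with resveratrol 9.10, 9.42, 9.62, 9.60 and 9.26. Lean 2 lay above all obese and all resveratrol arrays. Bgn was 2.97-fold higher with rosiglitazone than in lean (limma adjusted p = 0.00793).

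Anxa5, a phosphatidylserine-binding annexin, was 1.87-fold higher with rosiglitazone than in lean (adjusted p = 0.0155), and Sema7a, a membrane-anchored semaphorin, 2.30-fold higher (adjusted p = 0.00254, both limma). Axl, a receptor kinase with a part in the clearance of dying cells, had means of 6.09 in lean and 6.74 to 6.89 elsewhere and passed no test. Of 11 measured genes of collagen and matrix, 0 were members. limma called 2 of them higher with rosiglitazone than in lean, the lysyl oxidase gene Lox (adjusted p = 0.000695) and Postn (adjusted p = 0.000276), and 0 with resveratrol or in obese. The medians of this list were 0.03, 0.17 and 0.20 for obese, rosiglitazone and resveratrol.

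Hormone and insulin signalling was represented by Lep, Npr3, Grb14 and Prcp. Lep encodes leptin. It read 8.77, 10.32, 6.00, 8.28 and 8.71 on the lean arrays, with lean 3 far below and lean 2 far above the other lean arrays. The obese arrays read 10.23, 10.11, 9.24, 9.65 and 9.99, the rosiglitazone arrays 9.06, 9.95, 8.96, 10.09 and 9.35, and the resveratrol arrays 10.30, 10.37, 10.41, 10.57 and 10.45. The resveratrol arrays spanned the narrowest range and lay above all obese and rosiglitazone arrays. The mean was 8.42 ± 1.55 (SD, n = 5) in lean, 4.01-fold lower than with resveratrol, and no difference from lean was called (limma adjusted p = 0.259, 0.23 and 0.0763 for obese, rosiglitazone and resveratrol). Without lean 2 the lean mean was 7.94, and the log2 differences were 1.90, 1.54 and 2.48.

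Npr3, the receptor that clears natriuretic peptides, resembled Lep within lean. It read 8.49, 9.72, 7.02, 8.38 and 8.71, lean 2 being the highest and lean 3 the lowest of all 20 arrays. Outside lean its range was 8.67 to 9.58. Grb14, an adaptor that inhibits the insulin receptor, read 3.60, 5.59, 3.53, 3.97 and 4.68 in lean and 4.42 to 6.18 elsewhere. Grb14 was 2.67-fold higher with resveratrol than in lean and Npr3 1.96-fold, with limma adjusted p of 0.0737 and 0.156. Prcp, a carboxypeptidase that inactivates a melanocortin peptide in mice, rose 2.17-fold with rosiglitazone (adjusted p = 0.0148), where its arrays read 6.14 to 6.40 against 4.58 to 6.05 in lean.

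Of 9 measured genes of adipokines and adiposity, Lep and Npr3 were members, and limma called 1 row of the list higher and 2 lower with rosiglitazone than in lean (0 in obese and with resveratrol). The called ones were Gdf15, higher, and Nnat and Bmp3, lower.

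The last 9 named members share no role. Unc79, a subunit of the sodium leak channel complex of neurons, read 2.73, 4.48, 3.05, 3.24 and 2.59 in lean and 4.62, 4.36, 3.92, 4.06 and 3.51 in obese. With rosiglitazone it read 4.38, 4.71, 4.42, 4.77 and 4.48, and with resveratrol 4.76, 4.55, 4.56, 4.32 and 4.71. Apart from lean 2, the lean arrays lay below all others. Unc79 rose 2.52-fold with rosiglitazone (limma adjusted p = 0.00419) and 2.58-fold with resveratrol (adjusted p = 0.0426).

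Tnik, a kinase of the Wnt pathway, showed the widest gap between the lean arrays other than lean 2 and the rest among the named members. Those 4 arrays read 2.84, 2.18, 2.90 and 2.77, lean 2 read 3.89, and the others read 3.37 to 4.40. It rose 1.91-fold with rosiglitazone (adjusted p = 0.0151) and 2.39-fold with resveratrol (adjusted p = 0.0391, limma). Mreg, melanoregulin, a protein of lysosome-related organelles, had the largest difference of all members between rosiglitazone and obese (1.43 on the log2 scale). Its lean values were 2.89, 3.85, 2.92, 2.60 and 2.95, and the obese values 3.29, 4.02, 2.96, 3.76 and 4.30. With rosiglitazone it read 4.67, 5.47, 4.69, 5.47 and 5.20, above all other 15 arrays, and with resveratrol 3.99, 4.33, 4.37, 4.34 and 4.07. Mreg rose 4.17-fold with rosiglitazone against lean (adjusted p = 4e-05) and 2.27-fold with resveratrol (adjusted p = 0.0498).

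Ptcd3, a protein of the mitochondrial ribosome, rose 1.81-fold with rosiglitazone (limma adjusted p = 0.00179). Dhrs9, a retinol dehydrogenase, rose 2.51-fold with resveratrol (adjusted p = 0.0391), and Glipr1, a member of the CAP protein family, 2.83-fold (adjusted p = 0.0426). Evi2a, Prrg4 and Emp3 passed no comparison with lean; their lean means were 3.61, 2.86 and 5.80 and their lowest other means 4.18, 3.58 and 6.37. Mreg, Sema7a, Alox15, Selplg, Dhrs9, Cyba, Emp3, Evi2a, Cd83 and Ptcd3 lie outside the naming rule and are given so that each member with 1 symbol has its values.

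Among the groups other than lean, the limits of the choice held the differences small, and the highest mean was that of resveratrol in 46 rows, rosiglitazone in 39 and obese in 15. For rosiglitazone minus obese limma called 5 of the 100, all higher, against 15% of all rows in either direction. They were Thbs2, Mreg (2.70-fold, adjusted p = 0.00101) and the unnamed rows 17787090 (2.16-fold, adjusted p = 0.00247), 17600871 (1.91-fold, adjusted p = 0.0151) and 17863691 (1.59-fold, adjusted p = 0.0399); the last pair of rows is named because so few were called, after the values had been seen. For rosiglitazone minus resveratrol 1 was called, against 2.2% of all rows. It was row 17787090, which read 9.92, 9.37, 9.56, 9.54 and 9.75 with rosiglitazone while its range was 7.09 to 8.22 in lean, 7.70 to 8.88 in obese and 8.40 to 8.99 with resveratrol. Its rosiglitazone arrays lay above all others (2.0-fold against resveratrol, adjusted p = 0.0146). For resveratrol minus obese 0 of the 100 and 0% of all rows were called, while 4 members and 9234 of all rows had an unadjusted p under 0.05. The members' count was 0 whichever array was left out, but the count over all rows was not: 1770 were called higher and 1544 lower without obese 1, 1180 and 1121 without obese 4, 512 and 562 without lean 1, and 153 and 79 without lean 2.

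The 67 rows without a gene fell into groups that differed in level. In all, 34 of the 100 are numbered below 17610335, the lowest row with a gene, where 13.9% of the table lies, and their median level was 2.43 against 2.55 over all rows. The 33 unnamed rows above that number had a median level of 4.96, and the 32 named rows 4.61. In addition, 4 pairs of members held identical values on every array, so the 100 rows are 96 distinct profiles. Over the whole array 1401 rows share all values with another row. The row shared by Fcgr2a and FCGR3 had a mean of 5.93 ± 0.95 (SD, n = 5) in lean and 6.52 to 6.98 in the other groups.

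Row 17882681 had the highest score of all, 1.88. It read 5.16, 7.78, 7.21, 4.63 and 4.82 in lean, 7.62, 7.70, 7.68, 8.25 and 7.74 in obese, 7.27, 8.89, 8.30, 9.29 and 8.89 with rosiglitazone and 8.25, 7.58, 8.04, 8.58 and 7.99 with resveratrol. Lean 2 and lean 3 lay near the other groups, and the other 3 lean arrays lay more than 2 log2 units below them. It rose 6.09-fold with rosiglitazone (limma adjusted p = 0.00278) and was not called with resveratrol (adjusted p = 0.0628) or in obese (adjusted p = 0.157). Row 17752700 scored 1.49 and read 7.30, 10.09, 8.93, 8.62 and 9.07 in lean against 9.60 to 11.16 elsewhere. It passed the test with rosiglitazone (4.07-fold, adjusted p = 0.00132) and with resveratrol (3.17-fold, adjusted p = 0.0498).

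The rows in which all 5 lean arrays lay below all others were both unnamed. Row 17606563 read 1.33, 1.35, 0.95, 1.10 and 0.99 in lean and 1.59 to 2.75 elsewhere, a level near or below the median of all rows. It rose 1.86-fold with rosiglitazone (limma adjusted p = 0.0214) and was not called in obese (adjusted p = 0.119) or with resveratrol (adjusted p = 0.0724). Row 17840441 read 2.42, 2.82, 2.62, 2.47 and 2.39 in lean and 2.98 to 4.07 elsewhere. It rose 1.84-fold with rosiglitazone (limma adjusted p = 0.00973) and 2.01-fold with resveratrol (adjusted p = 0.0426). Lean 2 was the highest lean array in both rows.

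The lean arrays took different places in the named rows and in the rows numbered below the lowest named row. Over the 32 named rows the medians were 3.55, 4.91, 3.86, 3.75 and 4.04 on lean arrays 1 to 5 and 4.39 to 5.30 elsewhere, so lean 2 lay inside the other groups. Over the 34 low-numbered rows they were 1.72, 1.69, 1.92, 1.86 and 1.72 against 2.18 to 2.93 elsewhere, and lean 2 was the lowest lean array. These medians did not overlap, but the rows were chosen for a low lean mean. limma called 0, 3 and 1 of the 34 higher in obese, rosiglitazone and resveratrol than in lean. Of the 32 named rows it called 0, 13 and 5, and of all rows 0.0191%, 3.68% and 0.191%. Lean 2 was the highest lean array in 29 of the 32 named rows, in 22 of the 33 other unnamed rows and in 8 of the 34 low-numbered rows, beside 21.0% of all rows. In 24 of the 32 named rows it lay at or above the lowest of the other group means, as no other lean array did in any of them. Obese 3 was the lowest obese array in 28 of the 32 named rows, beside 28.0% of all rows. Without it limma still called 0 members higher for obese minus lean, beside 5 of the 36685 rows, and the choice kept 61 of the 100 rows.

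**Figure D3:**
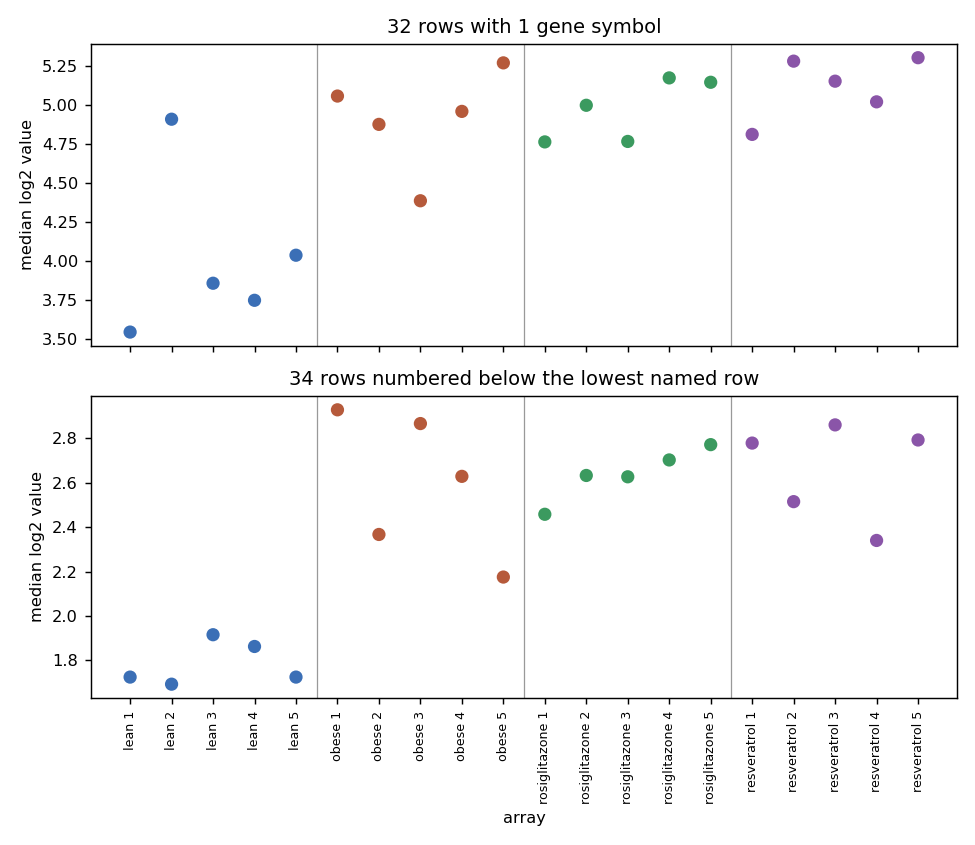
Median log2 value on each array over the 32 lean-low rows with 1 gene symbol (upper panel) and over the 34 lean-low rows numbered below the lowest named row (lower panel). In the upper panel lean 2, at 4.91, lies among the other groups. In the lower panel all 5 lean arrays lie below 2 while the other arrays lie at 2.18 or above. Both sets of rows were chosen for a low lean mean.

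Since the lean values chose the rows, each lean array was also looked at in 100 rows chosen by the same rule without it. The other groups' means still entered that choice, so this is a description with no test. The left-out array lay below the lowest other group mean in 79 of 100 rows for lean 1, 70 for lean 3, 83 for lean 4 and 80 for lean 5, with median log2 differences of -0.41, -0.32, -0.54 and -0.46. For lean 2 it did so in 30 of 100 rows, with a median of 0.21. Over all rows the share below was 30.5% to 36.8%, with medians of 0.13 to 0.16. These shares are no measure of what chance would give, since the rows were picked for high means in the other groups.

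By kind of row, the left-out lean 2 lay below in 4 of 43 rows with 1 symbol and in 13 of 19 low-numbered rows. The rows chosen without lean 2 shared 73 with the 100 and included leukocyte genes that are not members, such as Spi1, Fcer1g, Naip5, P2ry13, Capg and Lcp1. Fn1 (fibronectin) and the protease gene Adamts5 also entered.

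**Figure D4:**
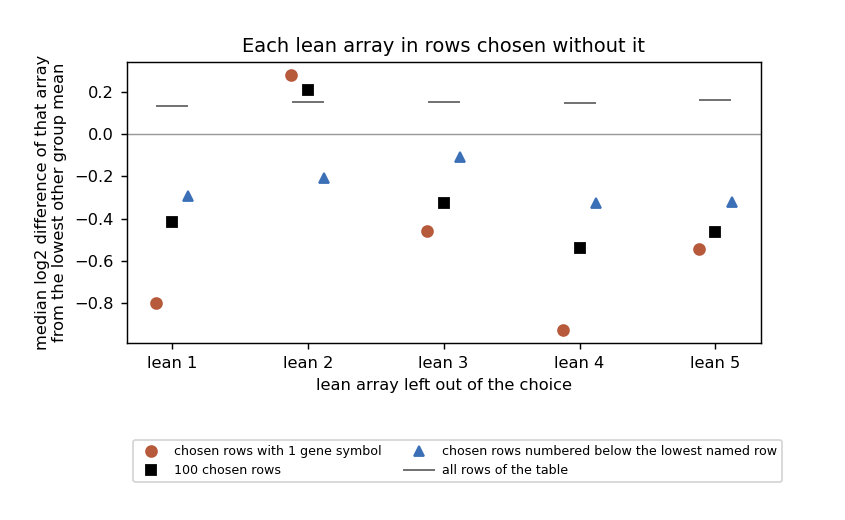
Median log2 difference between a lean array and the lowest of the obese, rosiglitazone and resveratrol means, in 100 rows chosen without that array. Squares are the 100 rows, circles those with 1 symbol, triangles those numbered below the lowest named row, and short lines all rows of the table. Lean 1, 3, 4 and 5 lie below 0 for each kind of chosen row. Lean 2 lies at 0.21 for the 100 rows, 0.28 for those with 1 symbol and -0.21 for the low-numbered ones. The short lines lie above 0 for every lean array, at 0.13 to 0.16.

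Marker lists of leukocyte types gave the surroundings of the leukocyte members. The summed log2 signal of 11 measured macrophage genes (of 13 listed) was 8.40 to 9.16 on the lean arrays other than lean 2 and 10.2 on lean 2. It was 9.52 to 10.9 in obese, 9.32 to 10.3 with rosiglitazone and 9.90 to 10.7 with resveratrol. Lyz2 is the 1 member among them. The median difference from lean over the list was 0.41, 0.60 and 0.95 for obese, rosiglitazone and resveratrol, and limma called 0, 1 and 1 of the 11 higher, Ccl2 with rosiglitazone (adjusted p = 0.0378) and Cd68 with resveratrol (adjusted p = 0.0391). Adgre1, a defining macrophage gene, differed by -0.15, 0.06 and 0.21 and passed no test. The macrophage sum weighs bright rows most and includes Lyz2, a member chosen for a low lean mean. It is therefore no separate measure of the leukocyte members, and its part in their values was not tested.

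All 7 measured MHC class II genes had positive differences from lean in each group, with medians of 0.51, 0.48 and 0.64. RT1-DMa (adjusted p = 0.0476) and RT1-DMb (adjusted p = 0.0498) were called higher with rosiglitazone. Of 10 measured genes of lysosomes and lipid-laden macrophages, Lgals3 was a member and the only one called with rosiglitazone. Gpnmb was called in obese (log2 2.33, limma adjusted p = 0.029) and with resveratrol (2.15, adjusted p = 0.0391) but not with rosiglitazone (1.02, adjusted p = 0.161), and it was kept out by the limits of the choice. Of 11 measured T and NK cell genes, 8 had a mean level below the median of all rows, among them the defining genes Cd3d, Cd3e and Cd3g at 1.93, 1.49 and 1.31. The summed log2 signal of the 11 was 6.99 to 7.60 on the lean arrays other than lean 2. It was 8.53 on lean 2 and 7.67 to 9.02 elsewhere. That sum weighs bright rows most, and the 11 genes did not rise together. Their median difference from lean was 0.07, -0.07 and -0.10 for obese, rosiglitazone and resveratrol, with 6, 5 and 3 of the 11 positive. The part of the sum in the values of the leukocyte members was not tested. limma called 0, 1 and 1 of the 11 higher in obese, with rosiglitazone and with resveratrol. Il7r, a cytokine receptor chain of lymphocytes, was called with rosiglitazone (log2 1.16, adjusted p = 0.00152). Cd4, which rat macrophages also carry, had log2 differences of 1.41, 0.59 and 1.71 (adjusted p = 0.102, 0.321 and 0.0391). The 3 measured B cell genes and the 8 neutrophil genes had 0 called in any of the 3 comparisons.

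**Figure D5:**
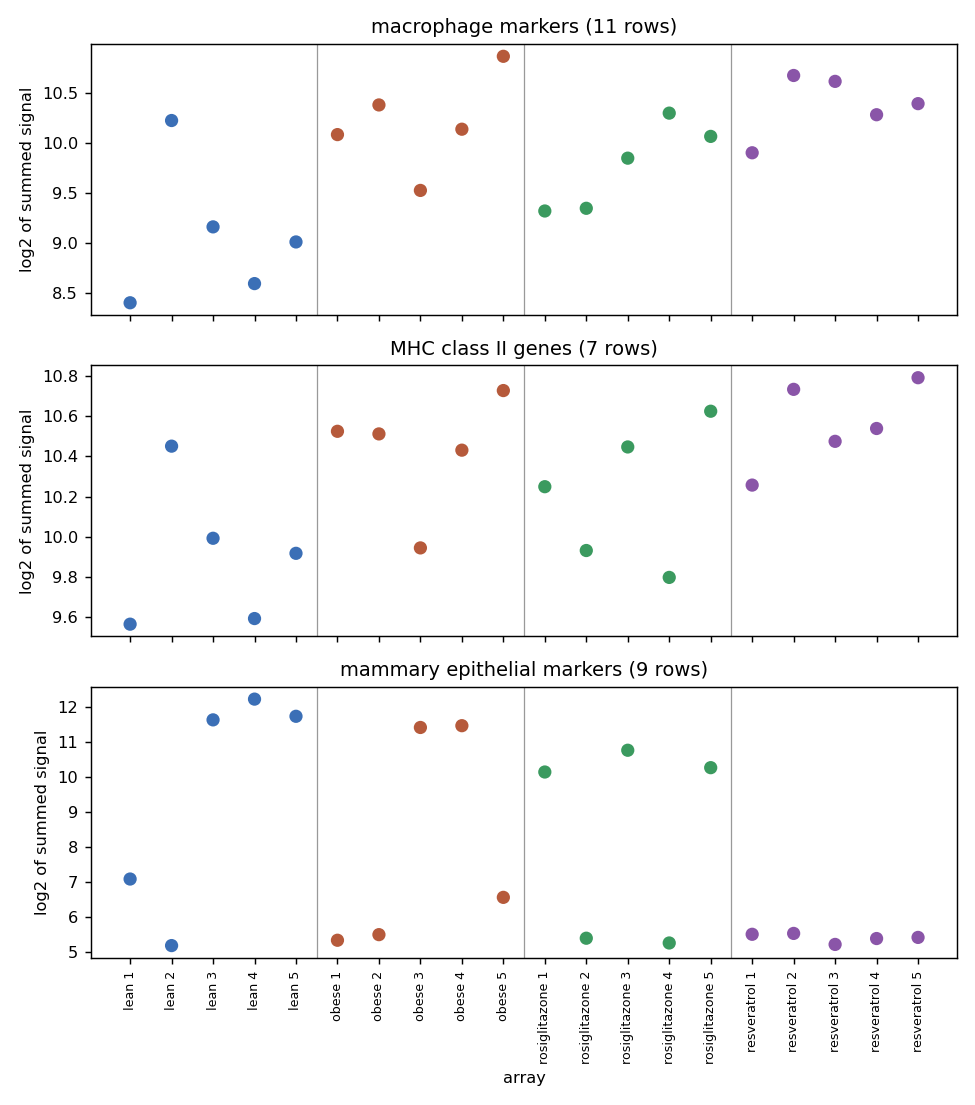
Log2 of the summed signal of 11 macrophage markers, 7 MHC class II genes and 9 mammary epithelial markers on each array. The macrophage sum is 8.40 to 9.16 on the lean arrays other than lean 2, which lies at 10.2, and 9.32 to 10.9 on the others. The mammary sum splits the lean, obese and rosiglitazone groups, from 5.19 on lean 2 to 12.2 on lean 4.

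At the edge of the set the scores differed by less than any spread between arrays. The last 3 rows inside were 17608233, 17600551 and 17610065, the last pair with identical values, at scores of 0.55. The first 3 outside were row 17630562, B4galt6 (a galactosyltransferase gene) and row 17802877, at 0.55, 0.55 and 0.54. Row 17630562 itself was called in obese against lean (1.44 on the log2 scale, limma adjusted p = 0.0464), which no member was. A further 49 rows scored at least as high as the last member and exceeded a limit of the choice, Gpnmb among them. The named members lay on 16 chromosomes, and 0 of 32 lay on chromosome 5, which carries Lepr, the leptin receptor gene, beside 5.99% of the named rows of the table.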

How the data were processed

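Total RNA of frozen subcutaneous tissue was labelled with biotin and hybridised to 20 arrays, 5 per group. RMA (background correction, normalisation and summary over probes) produced the values, per the submitters' processing notes. Its software and settings were not given in the sources used here. Strip, scan date and batch are likewise not stated, and batches were not tested. The deposited log2 values, -0.16 to 12.5 with 0 missing, were used as they stand.

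Group means gave the members. One limma 3.58.1 model (R 4.3.3; lmFit and eBayes, a term per group, all 20 arrays) was fitted to all 36685 rows. Each contrast was adjusted over all rows by the Benjamini-Hochberg method and called at an adjusted p under 0.05. Folds are 2 to the power of a log2 difference. The code was tested on simulated data.

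Symbols came from the array's platform annotation, which names 14824 rows by 1 symbol, 829 by several and 21032 by none, and can be old. Sums of markers add linear signal before log2. The members and the lists were chosen with earlier results of these data known, and roles were assigned after the values were seen. Named are the 20 highest-scoring members, the 20 highest-scoring with 1 symbol, members in a gene list, the 5 with the widest gap and the 5 with the most overlap between lean and other arrays, and 3 rows on either side of the limit. Alternatives were quantile normalisation, centring, a filter on dim rows, array weights, a trended robust prior, a fit of only the compared groups, a block for replicate numbers, omission of each array in turn, medians for means, and a choice with no limits. Choosing rows without a lean array was added after seeing the data. Tables were made with pandas 2.3.3.

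Precision is limited by how many arrays there are. Over all rows a log2 difference had a median SE of 0.19. The lean-low rows varied more within groups, and the SE was 0.21 for Anxa5, 0.36 for Cd53 and 0.49 for Lep.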

Additional observations from a re-analysis of the deposited data

Results flagged for a closer look

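In 15 of 204 combinations of a named row and a group, 1 array stood farther from the other 4 than Dixon's limit of 0.71 allows. Chance alone would give about 10.2. Obese 3 was the array in 4 of them and lean 2 in 3. Mreg, which lies outside the naming rule, is not counted here, although lean 2 stood apart in it too (3.85, the others 2.60 to 2.95).

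Obese 3 was low in Prcp (4.92, the others 6.05 to 6.28), Prrg4 (2.79, the others 3.69 to 3.97), row 17882025 (5.55, the others 7.0 to 7.36) and B4galt6, the second row outside the set (3.38, the others 4.45 to 4.72). Lean 2 was high in Ly86 (4.26, the others 2.76 to 3.08), row 17882025 (7.04, the others 4.63 to 5.05) and row 17600387 (2.98, the others 1.61 to 1.98). Obese 5 was high in Cd53 (7.48, the others 5.65 to 6.15) and low in row 17608677 (1.46, the others 3.63 to 4.06). Obese 4 was high in row 17882681 (8.25, the others 7.62 to 7.74), and lean 5 in row 17607413 (2.94, the others 0.77 to 1.15). Rosiglitazone 1 was low in Cd53 (5.62, the others 6.18 to 6.34), and rosiglitazone 2 in Thbs2 (6.48, the others 7.18 to 7.46). Resveratrol 2 was low in row 17752700 (9.60, the others 10.55 to 10.85) and high in B4galt6 (5.54, the others 4.42 to 4.68). The cause of these values was not tested.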

How the results depend on the processing

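Of 53 alternatives other than leaving out 1 array, 40 stayed within the spread or within 1.5 times the count. A turn of direction was looked for only in the median score. It stayed positive, at 0.67 with quantile normalisation, 0.64 with centring and 0.65 with the filter on dim rows. The counts called for resveratrol minus lean moved most. They were 0 with each array centred on its median and 0 when only the groups compared were fitted, as over all rows. They were 24 with rows below the median level left out (of the 79 rows then left), beside 194 of 18343 rows called higher. With array weights 47 were called, beside 876 of the 36685 rows. For obese minus lean 1 was called higher after quantile normalisation, beside 6 of the 36685 rows. For rosiglitazone minus obese 10 were called higher after centring, beside 5156 of the 36685 rows. After quantile normalisation 4 were called, 1 of them lower, beside 2337 of all rows higher and 1416 lower. For rosiglitazone minus resveratrol 3 were called with array weights, 1 of them lower, beside 888 of all rows higher and 680 lower. When only those groups were fitted 5 were called, 2 of them lower, beside 807 of all rows higher and 615 lower. With dim rows left out, 1 of the 79 rows had no overlap, and all rows were not counted in that setting. The choice kept 49 of the 100 with group medians and 65 with no limits among the other groups. The cause of each shift was not tested, except that the filter leaves fewer members.

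With 1 array left out, the called counts ran from 0 to 11 for obese minus lean, 22 to 44 for rosiglitazone minus lean, 0 to 46 for resveratrol minus lean, 3 to 7 for rosiglitazone minus obese, 0 to 0 for resveratrol minus obese and 1 to 2 for rosiglitazone minus resveratrol. The 11, 44 and 46 came without lean 2, where 33, 1831 and 771 of all rows were called higher. The 22 came without lean 4 or lean 5, beside 962 and 1018 of all rows called higher. For rosiglitazone minus obese 7 were called without lean 1, beside 3635 of all rows higher and 2822 lower. Without obese 3 that count was 3, beside 2122 of all rows higher and 1084 lower. For rosiglitazone minus resveratrol 2 were called without obese 3, beside 617 of all rows higher and 420 lower. The choice kept 61 (without obese 3) to 91 rows. The median score ran from 0.59 to 0.79. Rows with no overlap ran from 2 to 19, the 19 being without lean 2, beside 0.234% of all rows. They numbered 4 without obese 3, where all rows were not counted.

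Arrays of the same number did not pair: 30 same-number pairs had correlations of -0.44 to 0.32, 3 of them over 0.1, and 4 of 20 arrays lay closest to their own number. With the number as a replicate block, 0, 30, 11, 3, 0 and 2 members were called in the 6 comparisons in the same order. All of these were higher, beside 10, 1252, 57, 2999, 0 and 427 of all rows called higher.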
